A study of Mus musculus with 10 samples.

Results

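The genes described here are 10 that act on methylation of histone H3 at lysine 4 (H3K4) outside the SET1 complexes. They are the methyltransferase genes Kmt2a, Kmt2b, Kmt2c and Kmt2d, the genes of the complex subunits Men1, Paxip1 and Ncoa6, and the demethylase genes Kdm1a, Kdm5a and Kdm5b. They were chosen by name and read from the deposited count table, in which each of the 10 matched 1 of 47729 genes, and all 10 passed the filter on low counts, with 1763 to 14054 counts per library. The study sequenced RNA of forelimb buds from mouse embryos at embryonic day 11.5 to 12 (somite stages 49 to 51), with 5 control and 5 knockout libraries from 4 litters. The knockouts carried Prx1Cre, a Cre recombinase that acts in limb bud mesenchyme, and had both copies of Cxxc1 floxed. In control 1, Prx1Cre was present with 1 floxed and 1 wild-type allele, and controls 2 and 4 had the same alleles without Cre. Control 3 had both alleles floxed and no Cre. Control 5 had both alleles floxed, and its label marks Prx1Cre with a question mark. Litter A gave controls 1 and 2 and knockouts 1 and 2, and litters B, C and D gave the libraries numbered 3, 4 and 5. The title of the series concerns BMP signaling and the differentiation of limb progenitors.

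H3K4 is methylated in mammals by 3 pairs of related enzymes, SETD1A and SETD1B, KMT2A and KMT2B, and KMT2C and KMT2D. All 6 work on a shared core of WDR5, RBBP5, ASH2L and DPY30, and each pair adds its own subunits. CXXC1, a protein that binds unmethylated CpG, belongs to the SET1 complexes. KMT2A and KMT2B carry a CXXC domain of their own and bind the tumour suppressor menin, the product of Men1, and are known for keeping Hox and other developmental genes active. KMT2C and KMT2D, with PTIP (Paxip1) and NCOA6, are known for placing monomethylation at enhancers. KDM1A, in the CoREST complex, removes mono- and dimethylation, and the KDM5 enzymes remove trimethylation.

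Cxxc1, the targeted gene, lay between 89.5 and 105.8 CPM (counts relative to the library's size after TMM scaling, the usual CPM) in the controls and between 73.1 and 76.2 CPM in the knockouts, with no overlap. The buds expressed the forelimb gene Tbx5 (188 ± 20.7 CPM in controls, 88.1 ± 9.95 in knockouts, SD, n = 5 each). The hindlimb gene Pitx1 was at 1.25 ± 0.427 and 0.972 ± 0.401 CPM, and the hindlimb gene Tbx4 was higher, at 11.4 ± 1.04 and 11.9 ± 1.97 CPM. Markers of several cell types and p53 target genes also differed between the groups, and their part in the results below was not tested. The summed level of 8 markers of limb mesenchyme ran from 1897 to 1970 CPM in controls and from 1089 to 1217 CPM in knockouts. The sum of 10 macrophage markers ran from 48.9 to 62.1 and from 182 to 215 CPM, of 8 ectoderm markers from 284 to 466 and from 509 to 606 CPM, and of 8 p53 target genes from 267 to 290 and from 1283 to 1497 CPM. Among the mesenchyme markers 4 of 8 fell, with Pdgfra (493 to 135 CPM) and Prrx1 (578 to 297 CPM) showing the largest drops in CPM. The other 4, Twist1 (-0.16 on the log2 scale), Hand2 (-0.21), Lhx2 (-0.27) and Msx1 (0.27), did not pass. Of the rest, 10 of 10 macrophage, 5 of 8 ectoderm and 8 of 8 p53 genes rose. Erythroid (7 of 8, 2886 to 3414 and 3608 to 7566 CPM), endothelial (6 of 7, 236 to 277 and 292 to 343 CPM) and muscle precursor markers (4 of 6, 88.1 to 109 and 95.7 to 177 CPM) rose as well. Of 6 Schwann precursor and melanoblast markers 1 rose and 2 fell (15.6 to 19.9 and 15.5 to 18.7 CPM), and neither of 2 hindlimb markers passed (10.7 to 13.9 and 10.8 to 15.3 CPM). None of these markers was listed at 0. In such bulk samples, fewer cells of a type and less RNA per cell cannot be told apart. Control 1 had 4114 CPM of Xist and knockout 3 had 2290 CPM, while the other 8 libraries held at most 5.48 CPM.

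Among the 10 genes, Kmt2b and Kmt2d rose in the knockout, Kmt2c, Men1 and Kdm5b fell, and Kmt2a, Paxip1, Ncoa6, Kdm1a and Kdm5a did not pass the test. These 5 of 10 called genes (50%) stand beside 35.2% of all 20562 genes tested that were called in either direction at a Benjamini-Hochberg adjusted p below 0.05. By direction, 2 of 10 rose where 18.1% of all genes did, and 3 of 10 fell where 17.1% did. The shifts were small. The median absolute log2 fold change was 0.16 for the 10 genes and 0.23 for all genes tested, and the median signed change was -0.02 and -0.00. In 1 of the 10 genes, Kmt2d, the groups did not overlap, which was so for 25.3% of all genes. The genes tested include ones with far fewer counts than the 10, and these comparisons were not matched for counts.

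**Figure D1:**
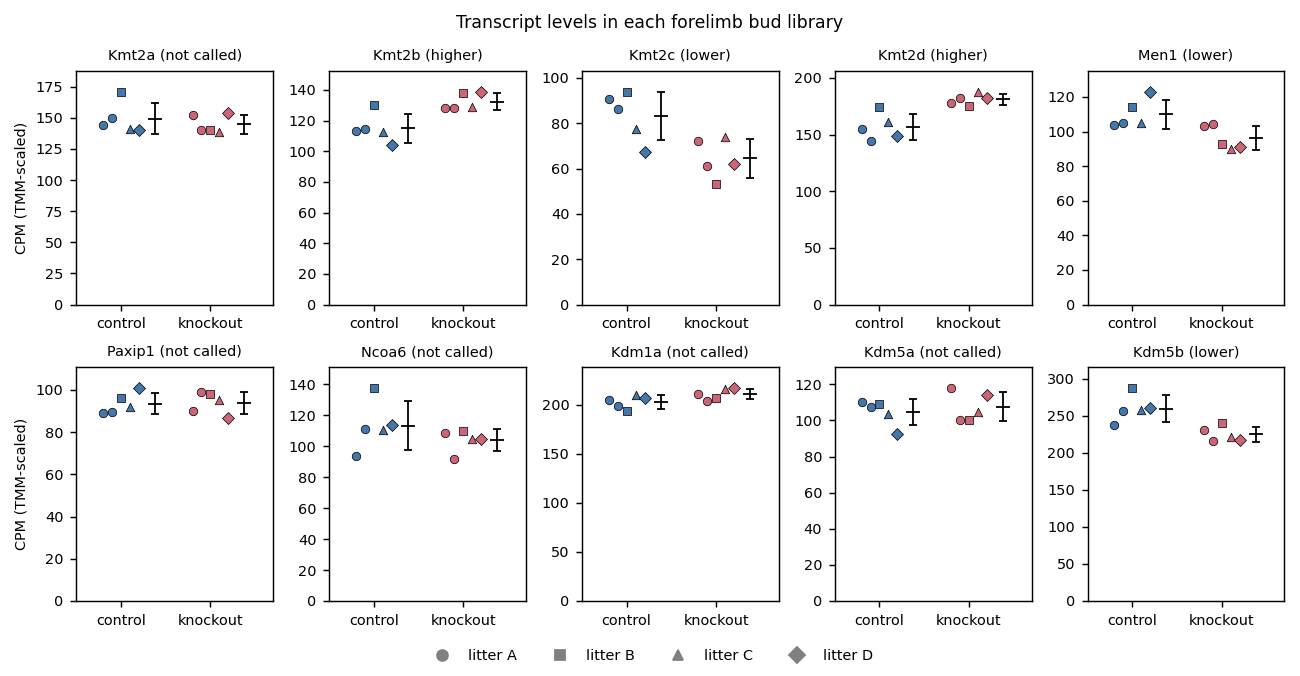
Transcript levels of the 10 genes in CPM (y axis, TMM-scaled, from 0) in each control (blue) and knockout (red) library, with 1 symbol shape per litter and the group mean ± SD (n = 5) beside the points. Kmt2d is the gene whose groups do not overlap, and in Kmt2c control 5 lies below knockouts 1 and 4.

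Levels of different genes can be compared only per length, here as CPM per kilobase of the longest coding transcript. In controls Kdm1a stood highest at 67.0 ± 2.21 CPM per kb (SD, n = 5), followed by Men1 at 37.0 ± 2.79 and Kdm5b at 29.8 ± 2.03. The ranges of these 3 genes did not overlap with each other or with the next gene. Paxip1 and Ncoa6 followed, both at 16.0 CPM per kb and not separable, then Kmt2b at 13.6 ± 1.1. Kdm5a at 9.56 ± 0.662 and Kmt2a at 9.06 ± 0.761 overlapped, as did Kmt2a and Kmt2d at 7.90 ± 0.593, and Kmt2c was lowest at 5.56 ± 0.717 CPM per kb. The top 3 and the lowest gene kept their places when levels were divided by the length of all exons instead. In the knockouts the order changed, and Kmt2d (9.13 ± 0.244 CPM per kb) had a higher mean than Kmt2a (8.80 ± 0.459), with overlapping ranges. Kmt2b (15.6 ± 0.637) had a higher mean than Ncoa6 (14.6 ± 1.02) there, also with overlapping ranges.

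**Figure D2:**
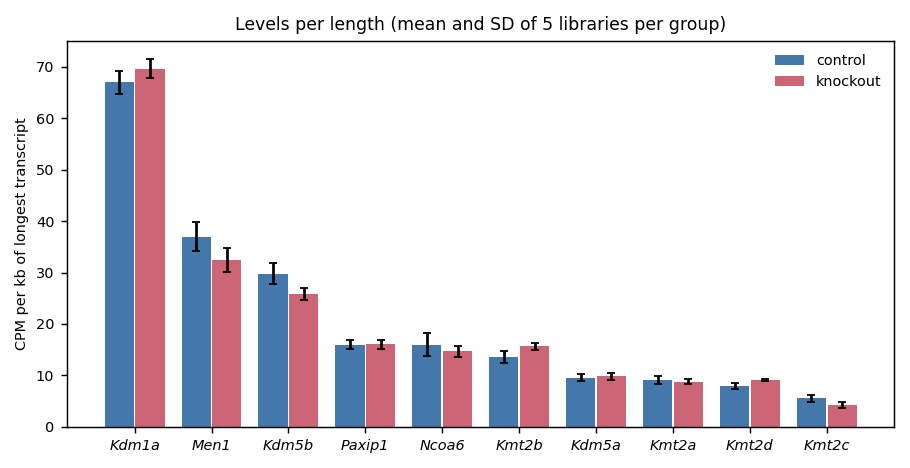
Mean level in CPM per kilobase of the longest coding transcript (y axis, from 0) for each gene (x axis), in controls (blue) and knockouts (red), with error bars of 1 SD (n = 5 each). Kdm1a is highest at 67.0 CPM per kb in controls and Kmt2c lowest at 5.56.

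Kmt2a and Kmt2b are the mammalian pair closest to Drosophila trithorax, and menin tethers both to their targets. Kmt2a (ENSMUSG00000002028, chromosome 9, 44803355 to 44881296, minus strand, GRCm38) was at 144.3, 149.5, 170.8, 141.3 and 140.5 CPM in controls 1 to 5 and at 152.2, 140.2, 139.8, 138.2 and 154.0 CPM in knockouts 1 to 5. Apart from control 3, which was highest, the groups covered much the same range. Its log2 fold change of knockout over control was -0.04 (SE 0.06, adjusted p = 0.621), and the sign turned with scaling by library size only (0.01) and with a length offset (0.04).

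Kmt2b (ENSMUSG00000006307, chromosome 7, 30568858 to 30588726, minus strand) was at 113.4, 114.4, 129.9, 112.5 and 104.3 CPM in the controls. The knockouts were at 128.2, 128.3, 137.8, 128.7 and 138.7 CPM. All 5 knockouts lay above 4 of the controls, and control 3 was the one that overlapped with them. Kmt2b rose by 15.2%, a log2 fold change of 0.20 (SE 0.06, adjusted p = 0.013), and was higher in all 4 litters (0.08 to 0.41 on the log2 scale). The call was lost without litter A (0.22, adjusted p = 0.107), against the 3 controls labelled without Cre (0.15, 0.0891), without the 2 libraries with high Xist (0.18, 0.0657) and after removal of each library's trend with GC content (0.17, 0.0535).

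Men1 (ENSMUSG00000024947, chromosome 19, 6334979 to 6340891, plus strand) encodes menin, the adaptor of this pair. The controls held 103.5, 104.7, 114.0, 105.1 and 122.9 CPM, and the knockouts 103.3, 104.5, 92.8, 90.0 and 91.3 CPM. In litter A the groups were level (-0.00 on the log2 scale), and in litters B, C and D the knockouts were lower by 0.22 to 0.43. Men1 fell by 12.4%, a log2 fold change of -0.19 (SE 0.06, adjusted p = 0.0309). This was the least stable of the 5 calls. It was kept with a block of litter (adjusted p = 0.0453) but lost with scaling by library size only (-0.14, adjusted p = 0.14), and without control 3 (0.0621), control 5 (0.0653), knockout 3 (0.0643), knockout 4 (0.0755) or knockout 5 (0.0625). It was also lost against the 3 controls labelled without Cre (0.0852) and without the libraries with high Xist (0.0645). Without litter A the fall was larger (-0.32, adjusted p = 0.0133).

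KMT2C and KMT2D are very large enzymes of enhancer methylation that can in part replace each other. Kmt2c (ENSMUSG00000038056, chromosome 5, 25271798 to 25498783, minus strand) was at 90.5, 86.5, 93.8, 77.6 and 67.3 CPM in the controls and at 72.4, 61.2, 53.2, 73.9 and 61.8 CPM in the knockouts. Of the controls, 4 lay above every knockout, and control 5, the embryo with the uncertain Cre label, lay among them. The fall of 22.4% was the largest change of the 10 genes (log2 fold change -0.37, SE 0.10, adjusted p = 0.0163). It was lower in all 4 litters, by 0.82 in B and 0.41 in A, but by only 0.12 in D and 0.07 in C. The call was lost without litter A (-0.34, adjusted p = 0.147), without the 2 libraries with high Xist (-0.27, 0.0796) and with an offset for exon length (-0.27, 0.0592), although it passed with that offset and a block of litter together (-0.27, 0.0421).

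Kmt2d (ENSMUSG00000048154, chromosome 15, 98831669 to 98871204, minus strand) went the other way. The controls held 155.0, 144.3, 174.5, 160.7 and 148.6 CPM, and the knockouts 177.9, 182.2, 175.0, 187.6 and 182.6 CPM. Every knockout was above every control, but control 3 and knockout 3, both of litter B, differed by less than 1 CPM. Kmt2d rose by 15.6% (log2 fold change 0.21, SE 0.05, adjusted p = 0.00715), with 0.27 in litter A, 0.00 in B, 0.22 in C and 0.30 in D. The call was lost without litter A (0.17, adjusted p = 0.134) and against the 3 controls labelled without Cre (0.18, 0.0583).

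Paxip1 and Ncoa6 encode subunits that, among others, set this pair apart. Paxip1 (ENSMUSG00000002221, chromosome 5, 27740080 to 27791691, minus strand) ranged from 88.9 to 100.8 CPM in controls, with a median of 92.1, and from 86.9 to 99.3 CPM in knockouts, with a median of 95.1. Its log2 fold change was 0.01 (SE 0.05, adjusted p = 0.936), and its sign changed between alternatives. Ncoa6 (ENSMUSG00000038369, chromosome 2, 155390656 to 155473894, minus strand) ranged from 93.7 to 137.5 CPM in controls and from 91.7 to 109.8 CPM in knockouts. Its log2 fold change was -0.12 (SE 0.09, adjusted p = 0.303), with values below 0 in all 4 litters (-0.32 to -0.03). It moved to -0.05 without control 3, its highest control, and to -0.19 without control 1, its lowest, and passed in neither.

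The 2 KMT2 pairs were also compared as ratios of counts within each library, which do not depend on library scaling. These ratios, with that of Kdm5b to Kdm5a, were chosen after the values above were seen, and p-values were adjusted over the 3. The adjustment does not cover that choice. The ratios combine the changes of the single genes and are no separate support for them. Labels were exchanged here without regard to litter, and the exchange within litters is given further below. Kmt2d over Kmt2c was 1.71, 1.67, 1.86, 2.07 and 2.21 in controls and 2.46, 2.98, 3.29, 2.54 and 2.95 in knockouts. Every knockout lay above every control, a difference of 0.58 on the log2 scale (exact two-sided permutation p = 0.00794, the smallest 5 against 5 can give, adjusted p = 0.0119). It was higher in all 4 litters (0.29 to 0.82). Kmt2b over Kmt2a was 0.786, 0.765, 0.760, 0.796 and 0.742 in controls and 0.842, 0.915, 0.986, 0.931 and 0.900 in knockouts, again with no overlap. The difference was 0.25 (exact permutation p = 0.00794, adjusted p = 0.0119), from 0.18 to 0.37 within the litters. Both ratio differences remained with a length offset (0.57 and 0.21) and with a GC offset (0.52 and 0.23). Without litter A, 3 against 3 cannot go below an exact permutation p of 0.1, and the differences were 0.51 and 0.29. As shares of the summed KMT2 level per kb, Kmt2c went from 15.4% ± 1.22 in controls to 11.4% ± 1.44 in knockouts (SD, n = 5), Kmt2d from 21.9% ± 1.06 to 24.1% ± 0.706, Kmt2b from 37.6% ± 0.282 to 41.3% ± 1.67 and Kmt2a from 25.1% ± 0.721 to 23.2% ± 0.851. The summed level was 36.1 ± 2.90 and 37.9 ± 0.860 CPM per kb, with overlapping ranges.

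**Figure D3:**
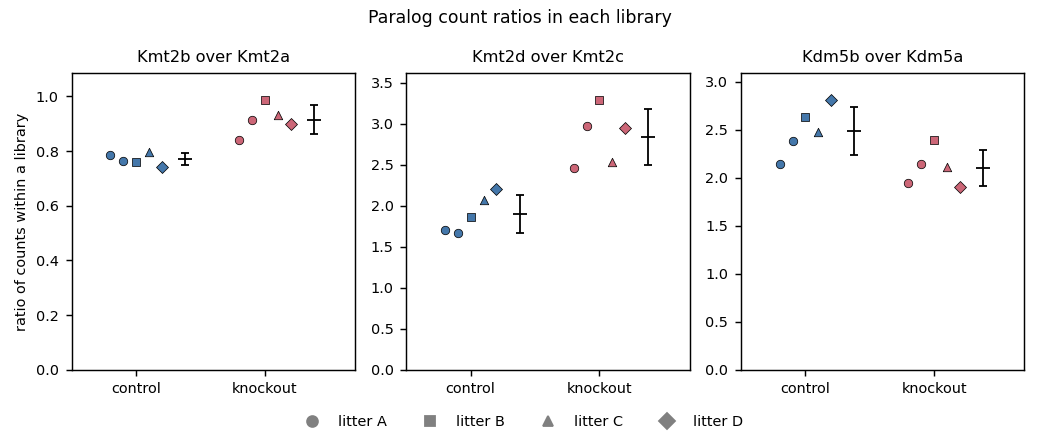
Ratio of counts of 2 related genes within each library (y axis, from 0) in controls (blue) and knockouts (red), with 1 symbol shape per litter and the mean ± SD (n = 5) beside the points. The groups are apart for Kmt2b over Kmt2a and Kmt2d over Kmt2c, and overlap for Kdm5b over Kdm5a.

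KDM1A, also called LSD1, is a flavin-dependent demethylase of H3K4. Kdm1a (ENSMUSG00000036940, chromosome 4, 136550540 to 136602723, minus strand) was at 205.1, 198.6, 193.5, 209.8 and 207.4 CPM in controls and at 210.6, 204.3, 207.2, 216.4 and 216.8 CPM in knockouts. The groups overlapped, and the log2 fold change was 0.06 (SE 0.04, adjusted p = 0.277), with 0.04 to 0.10 in the 4 litters. With scaling by library size only, which moved the median of all genes by 0.05, Kdm1a passed (0.11, adjusted p = 0.0296).

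KDM5A and KDM5B are JmjC-domain demethylases of trimethylated H3K4. Kdm5a (ENSMUSG00000030180, chromosome 6, 120364124 to 120444574, plus strand) ranged from 92.5 to 110.3 CPM in controls, with a median of 107.6, and from 100.4 to 117.8 CPM in knockouts, with a median of 104.8. Its log2 fold change was 0.04 (SE 0.06, adjusted p = 0.676). Kdm5b (ENSMUSG00000042207, chromosome 1, 134560171 to 134635285, plus strand) was at 237.6, 256.2, 287.0, 257.2 and 260.0 CPM in controls and at 230.1, 215.5, 240.3, 221.6 and 217.5 CPM in knockouts. Knockout 3 lay above control 1, and the other 4 knockouts lay below every control. Kdm5b fell by 13.3% (log2 fold change -0.21, SE 0.05, adjusted p = 0.00886) and was lower in all 4 litters, by 0.15 to 0.26. The call remained in 24 of 26 alternatives, and was lost with a length offset, without and with a block of litter (-0.13 in both, adjusted p = 0.087 and 0.052). The ratio of Kdm5b to Kdm5a was 2.15, 2.38, 2.63, 2.48 and 2.81 in controls and 1.95, 2.15, 2.39, 2.11 and 1.91 in knockouts. The ranges overlapped and the difference was -0.24 on the log2 scale (exact permutation p = 0.0317, adjusted p = 0.0317). It missed an unadjusted p of 0.05 when control 3, 4 or 5 or knockout 1, 4 or 5 was left out (exact permutation p = 0.0635 in each).

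**Figure D4:**
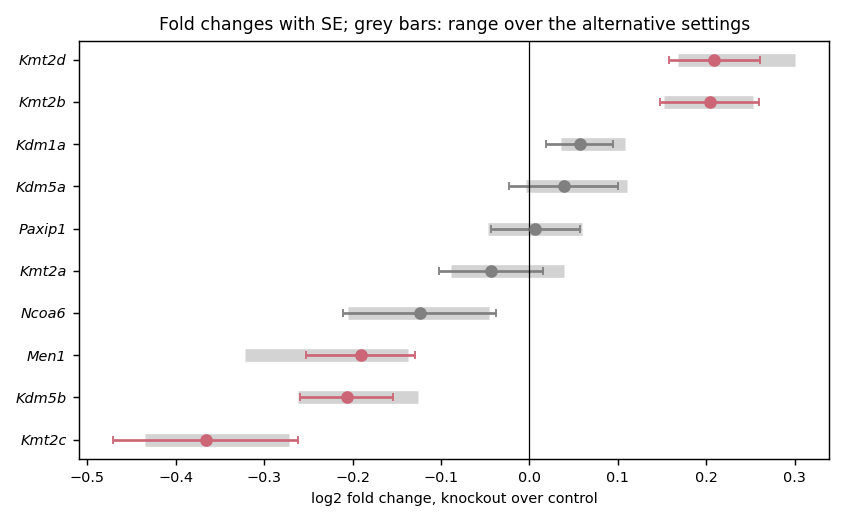
Log2 fold change of knockout over control (x axis) for each gene (y axis) with its SE, in red where the adjusted p was below 0.05, over grey bars that span the values in 26 alternative settings. The 5 called genes lie on 1 side of 0 in every setting, as do Ncoa6 and Kdm1a, which were not called. The bars of Kmt2a, Paxip1 and Kdm5a cross 0.

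The median log2 fold change varied slightly with exon length and GC content. The median log2 fold change was -0.07 in the 871 genes with over 12 kb of exon, which include Kmt2a, Kmt2c, Kmt2d, Kdm5a and Kdm5b, and 0.03 in the 6198 genes with 2 to 4 kb. Genes with over 12 kb were lower in 28.0% and higher in 15.6%. By GC content of the longest coding transcript, the median was -0.03 in the 3910 genes of 40% to 45% and 0.05 in the 3628 genes of 55% to 60%, but 0.01 in the 921 genes above 60%. The longest coding transcript of Kmt2c had 47.6% GC, that of Kmt2d 58.4%, of Kmt2b 59.1% and of Kmt2a 50.6%. With a GC offset Kmt2c (-0.35), Kmt2d (0.17), Men1 (-0.23) and Kdm5b (-0.19) stayed past the threshold.

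Since CXXC1 binds CpG, the CG dinucleotides in the 250 bases before each RefSeq transcription start (build GRCm38.p6) were counted. A window was found for 8 of the 10 genes, and Kmt2b and Kdm5a had no entry. The windows of the called genes are printed 5′ to 3′ to show how far they differ in CpG density, with each CG in capitals. They are those of Kmt2c (chr5:25498784-25499033, minus strand), Kmt2d (chr15:98871206-98871455, minus strand), Kdm5b (chr1:134559928-134560177, plus strand) and Men1 (chr19:6334729-6334978, plus strand, the most upstream of 3 overlapping windows).
Kmt2c: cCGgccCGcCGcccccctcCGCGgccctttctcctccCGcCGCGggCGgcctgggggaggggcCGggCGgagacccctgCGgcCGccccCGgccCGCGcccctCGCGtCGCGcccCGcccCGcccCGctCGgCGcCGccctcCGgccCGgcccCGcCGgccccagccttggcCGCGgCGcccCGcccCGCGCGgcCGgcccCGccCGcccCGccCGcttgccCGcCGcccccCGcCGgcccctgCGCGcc
Kmt2d: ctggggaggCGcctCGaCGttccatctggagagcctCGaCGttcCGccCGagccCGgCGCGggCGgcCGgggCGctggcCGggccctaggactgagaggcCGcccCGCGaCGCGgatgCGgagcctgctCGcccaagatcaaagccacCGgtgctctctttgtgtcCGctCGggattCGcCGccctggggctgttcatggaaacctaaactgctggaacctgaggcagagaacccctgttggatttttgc
Kdm5b: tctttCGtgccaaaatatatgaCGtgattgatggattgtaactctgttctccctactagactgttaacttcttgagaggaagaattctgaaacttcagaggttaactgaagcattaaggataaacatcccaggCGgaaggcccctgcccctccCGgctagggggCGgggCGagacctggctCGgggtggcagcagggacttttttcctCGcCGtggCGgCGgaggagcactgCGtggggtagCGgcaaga
Men1: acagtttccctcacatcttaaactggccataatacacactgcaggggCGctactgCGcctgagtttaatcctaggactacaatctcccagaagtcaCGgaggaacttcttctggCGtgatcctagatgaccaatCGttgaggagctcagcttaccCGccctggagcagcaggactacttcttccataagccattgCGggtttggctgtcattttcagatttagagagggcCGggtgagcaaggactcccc

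The Kmt2c window held 48 CG, as many or more than which were found in 0.186% of 32851 promoter windows of this length. Kmt2d held 26 (9.59% of windows held as many), Kdm5b 13 (31.5%) and Men1 8 (43.0%). Of the genes that did not pass the test, Kmt2a held 29, Paxip1 22, Kdm1a 21 and Ncoa6 1. The Ncoa6 entry starts 33111 bases inside the gene as GENCODE draws it. At least 1 CG was present in 92.1% of all windows, and the median was 6 over all windows and 21.5 over the 8. CG reads the same on both strands, so each counts once. Kmt2c, with the most CG of the 8, fell, and Kmt2d, with 26, rose. These counts describe the windows only.

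The partner genes were described from 7 lists of 42 genes, in which 2 rose, 11 fell and 29 did not pass (median log2 fold change -0.08). The 11 that fell include Cxxc1, the targeted gene. Over all genes tested 18.1% rose and 17.1% fell, and 35.2% were called in either direction. Of the shared core, Wdr5, the scaffold that holds the enzymes, rose from 120.2 ± 5.92 to 140.2 ± 5.06 CPM (SD, n = 5), with no overlap (0.22, SE 0.04, adjusted p = 0.00183). Rbbp5, Ash2l and Dpy30 were at -0.13, -0.01 and 0.13 and did not pass. Of 5 genes of SET1 enzymes and subunits, 2 fell, which were Cxxc1 itself (-0.36, SE 0.05) and Wdr82 (-0.18, SE 0.06, adjusted p = 0.0331). Wdr82 lost its call in 9 of 26 alternatives. The enzyme genes Setd1a (-0.03, SE 0.06, adjusted p = 0.748) and Setd1b (0.25, SE 0.09, adjusted p = 0.0636) did not pass. Setd1b had knockouts from 73.2 to 102.8 CPM and controls from 63.9 to 84.8 CPM, and passed in 6 alternatives.

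Of 4 partners of KMT2A and KMT2B, 1 fell. Hcfc2, a relative of the host cell factor Hcfc1, went from 28.9 ± 3.83 to 20.5 ± 2.37 CPM (-0.50, SE 0.10, adjusted p = 0.00265) and was lower in all 4 litters (-0.59 to -0.30). Hcfc1 (-0.08), Psip1 (-0.05) and Tasp1 (0.10), the protease that cleaves KMT2A and KMT2B, did not pass. Neither of the partners of KMT2C and KMT2D passed, with Pagr1a at 0.00 and Kdm6a, an H3K27 demethylase, at -0.27 (SE 0.19, adjusted p = 0.311).

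Kdm6a and Kdm5c lie on the X chromosome and Kdm5d on the Y chromosome, and each stood apart in the 2 libraries with high Xist. Control 1 held 99.9 CPM of Kdm6a and knockout 3 held 73.9 CPM, against 53 to 57.0 CPM in the other controls and 45.9 to 48.2 CPM in the other knockouts. Kdm5c was at 231.0 and 264.3 CPM in these libraries, against 160.6 to 196.2 and 188.9 to 195.4 CPM in the others. Kdm5d was at 2.13 and 2.35 CPM in them. It was at 79.2 to 94.0 CPM in the other controls and 59.99 to 71.5 CPM in the other knockouts, without overlap. With all libraries Kdm5d was at -0.40 (SE 0.767, adjusted p = 0.735), and it was not followed over the alternatives. Without the 2 libraries with high Xist, Kdm6a passed (-0.20, SE 0.05, adjusted p = 0.0128). The other genes listed with the H3K4 demethylases, Kdm1b (-0.15) and Kdm2b (0.16), did not pass. With all libraries, 0 of 4 on this list were called.

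CoREST is the complex through which KDM1A acts on nucleosomes. While Kdm1a itself did not pass, 5 of 11 CoREST genes fell, 0 rose and 6 did not pass (median -0.10), beside 17.1% of all genes that fell. This list, like the others, was drawn up with earlier results of these data known, so the comparison is a description and no test. The scaffold Rcor2 went from 115.0 ± 4.40 to 99.8 ± 5.08 CPM without overlap (-0.20, SE 0.04, adjusted p = 0.00354). The zinc finger genes Zmym2 (-0.30, SE 0.06) and Zmym3 (-0.25, SE 0.06) fell without overlap too, and Rcor3 fell by 0.27 (SE 0.08). The fifth was Phf21a, whose product reads unmethylated H3K4 (-0.30, SE 0.09). The deacetylase genes Hdac1 (-0.10) and Hdac2 (0.01) did not pass. Without litter A, Zmym2 (-0.20, adjusted p = 0.0649), Zmym3 (-0.21, 0.126) and Rcor3 (-0.30, 0.0792) were not called. Rcor3 also lost its call with scaling by library size only (-0.22, adjusted p = 0.0661) and with the length offset (-0.21, 0.0823). Phf21a was not followed over the alternatives.

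Of 12 genes whose products bind methylated H3K4, 3 fell, 1 rose and 8 did not pass (median -0.07), a share called close to the 35.2% over all genes. Phf13 went from 47.5 ± 3.46 to 32.3 ± 1.81 CPM (-0.55, SE 0.06, adjusted p = 3.5e-05), the largest change among all 52 genes of these lists. Spin1, from 250.4 ± 8.39 to 203.0 ± 7.90 CPM (-0.30, SE 0.04), and Ing4, from 105.3 ± 5.53 to 86.3 ± 3.83 CPM (-0.29, SE 0.05), fell without overlap, and in both the knockouts were lower in all 4 litters. Ing5 rose by 0.16 (SE 0.06, adjusted p = 0.0479) and lost its call in 16 of 26 alternatives, among them the block of litter (adjusted p = 0.0663).

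**Figure D5:**
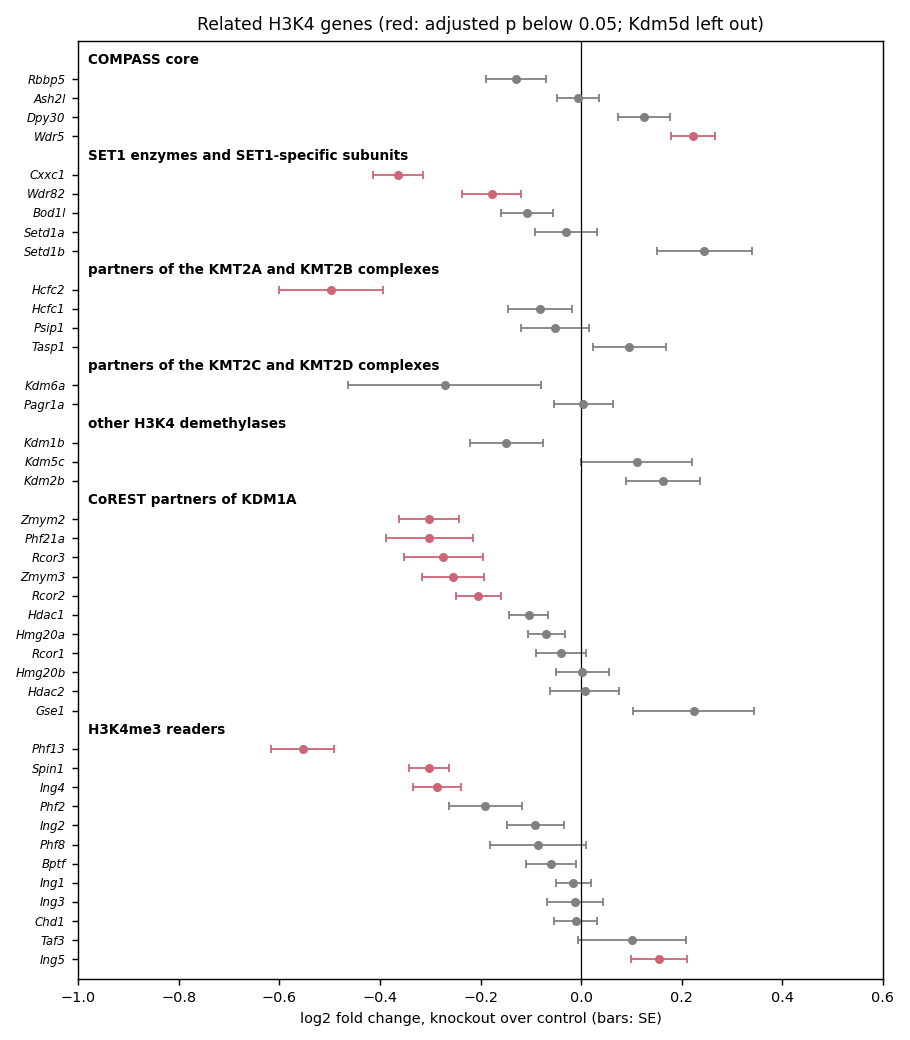
Log2 fold change of knockout over control (x axis) with its SE for the genes of the 7 related lists (y axis), in red where the adjusted p was below 0.05 and in grey otherwise. The CoREST list holds 5 of the 11 genes that fell, and Phf13 lies farthest from 0 at -0.55. Kdm5d is left out of the plot for its SE of 0.767.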

How the data were processed

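Estimated counts per Ensembl gene were made and deposited by the authors. The tools named per the submitters' processing notes are Salmon 0.8.2, DESeq2 1.16.1 and R 3.4.1, and the build is mm10; their roles are not stated there. The step from transcripts to genes and the use of strand were not given in the sources read. Of the estimated counts above 0, 0.0592% were whole within 1e-06, and all were rounded. The second deposited table, named as FPKM, holds a signal made by the authors that matches each library's rounded counts over a single size factor (100% of values within 0.01) and served only as an alternative. Symbols and positions came from GENCODE release M21 (GRCm38, the assembly of mm10), which named 47224 of the gene IDs, and promoters from RefSeq.

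Testing used edgeR 4.0.16 in R 4.3.3 (quasi-likelihood test, no covariate) after TMM scaling, on genes kept by filterByExpr with a minimum count of 10 and a minimum total of 15, with Benjamini-Hochberg adjustment over 20562 genes and a threshold of 0.05. The SE is the absolute log2 fold change over the square root of the F statistic. Litter values are differences of log2 CPM (prior count 2). Alternatives used DESeq2 1.42.0, limma 3.58.1, other scalings, offsets for each library's lowess trend with exon length or GC content (values for 99.5% of genes), blocks and left-out libraries. GC offsets and all tests of ratios were added after the data were seen. The scripts were run on simulated counts with larger fold changes than any of the 10 genes showed, so that run does not cover changes of their size. Libraries held 33274911 to 49880815 counts. The biological coefficient of variation was 16.4%.

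Litters pair the groups per the labels. The numbers follow litter in B, C and D, but within litter A they pair no libraries, so the litter is the block. Deviations from the group means correlated at -0.01, 0.16, -0.02, 0.04 and 0.20 in the same-numbered libraries 1 to 5. Each embryo gave 1 library. Opposite-strand genes shared at most 2.27% of the exon bases of the 10 genes, and at most 2.56% of their 31-base words occurred in other genes.

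The 10 genes were given by name and not picked by their measured values in this contrast. Both they and the lists were set with earlier results of these data known. Named genes were the 10, Setd1a, Setd1b, Cxxc1, Kdm6a, Kdm5c, and up to 4 called genes per list by smallest adjusted p. Other genes of the lists were named after their values were seen.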

Additional observations from a re-analysis of the deposited data

Results flagged for a closer look

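Of 52 groups of 5 libraries examined (26 genes in controls and in knockouts), 7 held 1 library far from the others, with a gap to its neighbour above 0.71 of the group's range. Chance gives about 1 in 20. Among the 10 genes this was so only for Ncoa6, at 91.7 CPM in knockout 2 against 105 to 110 CPM in the other knockouts. The X-linked Kdm6a was at 99.9 CPM in control 1 (others 53 to 57.0) and 73.9 CPM in knockout 3 (others 45.9 to 48.2), and Kdm5c at 264 CPM in knockout 3 (others 189 to 195). Zmym2 was at 156 CPM and Spin1 at 217 CPM in knockout 5, against 134 to 140 and 198 to 201 CPM in the other knockouts. Rcor2 was at 108 CPM in knockout 4 against 95.2 to 99.0 CPM in the other knockouts.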

How the results depend on the processing

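Over 26 alternatives the direction of the 5 called genes held throughout, as did that of Ncoa6 and Kdm1a, which were not called in the reported fit. The same 5 genes were called in 12. Kmt2d and Kdm5b were called in 24 each, Kmt2c in 23, Kmt2b in 21 and Men1 in 17. Of the 10 genes, 2 rose and 3 fell in the reported fit. None rose (0) without litter A or against controls labelled without Cre, 1 rose without the libraries with high Xist and with a GC offset, without or with the block of litter, and 1 fell with the length offset and with the high-Xist libraries left out. The cause was not tested. Over all genes 3719 were called higher and 3526 lower (51.3% higher), against 2002 and 2021 without litter A, where fewer libraries remained, and 62.2% higher with scaling by library size only. Of the related genes 2 were higher and 11 lower. The number higher was 5 with library size scaling, 4 with the length offset, and 1 without the filter, with the replicate block of number, with the replicate block of litter, without litter A, against controls without Cre and when the high-Xist libraries were left out. With single libraries left out it was 1 to 3. The number lower was 7 without litter A. The block of litter changed no call among the 10 genes. A replicate block of number, which also splits litter A by numbers that pair nothing within it, lost Men1 (-0.19, adjusted p = 0.0666) and no other of the 5.

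Directions turned only in genes not called. Kmt2a was at 0.0074 with library size scaling, at 0.037 with the length offset and 0.039 with that offset and the block of litter, and from -0.066 to 0.0086 with single libraries left out (above 0 without control 3). Paxip1 was at -0.0070 with the GC offset and -0.0065 with that offset and the block of litter, at -0.047 without litter A, at -0.027 when the high-Xist libraries were left out, and from -0.013 to 0.033 with single libraries left out. Kdm5a ran from -0.0042 to 0.064 with single libraries left out. Setd1a was at 0.019 with library size scaling and from -0.060 to 0.023 with single libraries left out. Kdm6a was at 0.030 without litter A. The ratio differences without litter A were 0.29 (Kmt2b over Kmt2a), 0.51 (Kmt2d over Kmt2c) and -0.31 (Kdm5b over Kdm5a), where no exact permutation p under 0.1 is possible. Kdm5b over Kdm5a was -0.25 against controls without Cre (exact permutation p = 0.0714), and from -0.29 to -0.20 with single libraries left out. With labels exchanged within litters, each of the 3 ratios reached an exact permutation p of 0.0417, the smallest that this block allows. Each of the 10 genes had at least 1763 counts in every library.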

Other observations

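As a description of pattern, the gene whose log2 CPM over the 10 libraries was most like each of the 10 was sought among 10971 genes with a mean of at least 5 CPM. The 10 libraries share genotype groups and litters, so the likeness (Pearson's r from 0.897 to 0.976) is given without a p. Kmt2b was most like Ecscr (0.946), Kmt2c like Trim3 (0.946), Kmt2d like Dazap1 (0.964), Men1 like Tigd3 (0.959) and Kdm5b like Cdc42ep4 (0.975). Of these 5, Ecscr (log2 fold change 0.49, SE 0.10), Tigd3 (-0.33, SE 0.10) and Cdc42ep4 (-0.29, SE 0.07) passed the test of knockout against control, and Trim3 (-0.19, SE 0.08) and Dazap1 (0.09, SE 0.04) did not. The most like genes of the others were Arel1 for Kmt2a, Dapk3 for Paxip1, Tox4 for Ncoa6, Amz2 for Kdm1a and Lats2 for Kdm5a, none of which passed (adjusted p from 0.148 to 0.954).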
